A study of Mus musculus with 16 samples.

Results

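Ttn (ENSMUSG00000051747) is the gene of titin, the giant elastic protein that runs from the Z-disc to the M-band of the muscle sarcomere. It was followed here through its read counts in 16 mouse heart libraries and through every splicing event that 3 deposited rMATS tables list under its symbol. It is 1 of 56953 genes in the count table. The rMATS tables held 121 Ttn events of 44612, 190 of 44418 and 161 of 41025, which came to 232 distinct events: 193 skipped exons, 36 mutually exclusive exon pairs, 2 alternative 3' splice sites and 1 retained intron. All mice were of the Bl6J strain, males and females, either wild type (WT) or homozygous for the RBM20 mutation P635L, and all received a virus. At 4 weeks of age they were injected through the tail vein with 1e12 vector genomes of AAV9, a virus that reaches heart muscle, carrying either the Tnpo3 cDNA or the control construct pCAG-iCre-T2A-eGFP, so that control mice expressed Cre and eGFP. Hearts were taken 12 weeks later, at 16 weeks, and poly(A) RNA of the left ventricle was sequenced in 4 mice for each of the 4 groups, called WT_Ctr, WT_Tnpo3, P635L_Ctr and P635L_Tnpo3. No uninjected group was used, so what AAV9 or Cre alone did cannot be told apart from the group values.

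Titin has a spring-like I-band part built of immunoglobulin-like domains and of a stretch rich in proline, glutamate, valine and lysine (PEVK), which unfolds when the muscle is stretched. RBM20 is a splicing regulator of the heart that keeps many of the exons for this spring out of the mature mRNA. Loss of RBM20 function therefore yields longer and more compliant titin. P635L lies in the arginine and serine rich stretch of RBM20 through which the protein enters the nucleus, and Tnpo3 (transportin 3) is an import receptor for proteins with such stretches. The comparisons thus ask how titin mRNA differs in mutant hearts, and how it differs again when the import receptor is supplied in excess.

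The 16 libraries held between 28493249 and 85922669 counts. In 3 of them (WT_Ctr 2, WT_Ctr 4 and WT_Tnpo3 4) a single gene, ENSMUSG00000119584, took 19.96% to 22.7% of all counts, against at most 5.30% in any other library. Levels are given as CPM, which are counts scaled to the library total after edgeR's TMM scaling had adjusted that total. Tnpo3 was at 41.6 to 49.4 CPM in WT_Ctr and 41.9 to 47.8 in P635L_Ctr. It was at 231 to 507 in WT_Tnpo3 and 234 to 723 in P635L_Tnpo3, so the virus label held in every library. Rbm20 was read at similar levels in all groups, 245 ± 78.5 CPM in WT_Ctr, 224 ± 56.4 in WT_Tnpo3, 235 ± 23.0 in P635L_Ctr and 225 ± 25.5 in P635L_Tnpo3 (SD, n = 4 each), and was called in none of the 5 comparisons. Xist counts exceeded those of Y-linked genes in WT_Ctr 4, WT_Tnpo3 2 and WT_Tnpo3 4 and in none of the 8 P635L libraries, so sex was not balanced between the genotypes, and its part in the splicing results was not tested. All 7 heart muscle markers were detected. Their summed level was 69535 to 82809 CPM in WT_Ctr, 60042 to 79125 in WT_Tnpo3, 50537 to 54634 in P635L_Ctr and 52409 to 62397 in P635L_Tnpo3, and the summed fibroblast markers were at 696 to 1095, 785 to 914, 1266 to 1885 and 835 to 1350 CPM. In RNA from whole tissue, fewer cells of a type and less RNA per cell cannot be told apart, and the part of cell makeup in the results below was not tested.

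The gene lies on the minus strand of chromosome 2, chr2:76534324-76812891 in GRCm39, with 389 distinct exons that sum to 117334 bases. Exons are numbered here in the 347-exon transcript Ttn-203, to which 192 of the 193 skipped-exon events were matched by exon lengths and by the distances to both neighbours. The skipped exons were 73 distinct ones, 72 of them in that transcript. Exons 113 to 203, bounds that were set by codon content, code for the PEVK stretch: 71.8% of their codons are for proline, glutamate, valine or lysine, against 32.1% in exons 1 to 47, 29.7% in exons 48 to 112 and 32.5% in exons 204 to 347. These 91 exons are short, with a median of 84 bases against 232 to 297 in the other stretches, and each of the 91 has a length that is a multiple of 3, so that leaving 1 out keeps the reading frame. The same held for 62 of 65 in exons 48 to 112, for 31 of 47 in exons 1 to 47 and for 111 of 144 in exons 204 to 347.

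The 6 exons below carry the results that follow. Their sequences are shown 5' to 3' on the coding strand, from the GENCODE M21 transcripts of build GRCm38, with the positions of the same exons on the minus strand in the deposited GRCm39 tables. Capitals mark whole codons for proline, glutamate, valine or lysine in the reading frame. Exons 115, 135, 140, 192 and 201 are PEVK exons, and exon 225 lies outside that stretch and is shown as the contrast to them.
Exon 115, chr2:76692456-76692533: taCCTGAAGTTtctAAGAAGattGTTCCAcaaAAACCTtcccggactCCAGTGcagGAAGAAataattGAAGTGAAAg
Exon 135, chr2:76680650-76680724: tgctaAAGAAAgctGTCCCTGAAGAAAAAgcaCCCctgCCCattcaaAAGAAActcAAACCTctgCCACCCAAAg
Exon 140, chr2:76678623-76678700: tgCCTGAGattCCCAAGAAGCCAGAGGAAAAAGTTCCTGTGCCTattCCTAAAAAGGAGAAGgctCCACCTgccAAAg
Exon 192, chr2:76657339-76657422: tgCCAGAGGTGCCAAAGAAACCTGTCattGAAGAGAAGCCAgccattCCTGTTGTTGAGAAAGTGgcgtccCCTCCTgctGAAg
Exon 201, chr2:76651460-76651528: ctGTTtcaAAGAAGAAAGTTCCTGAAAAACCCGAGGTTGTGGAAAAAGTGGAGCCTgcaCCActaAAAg
Exon 225, chr2:76632575-76632841: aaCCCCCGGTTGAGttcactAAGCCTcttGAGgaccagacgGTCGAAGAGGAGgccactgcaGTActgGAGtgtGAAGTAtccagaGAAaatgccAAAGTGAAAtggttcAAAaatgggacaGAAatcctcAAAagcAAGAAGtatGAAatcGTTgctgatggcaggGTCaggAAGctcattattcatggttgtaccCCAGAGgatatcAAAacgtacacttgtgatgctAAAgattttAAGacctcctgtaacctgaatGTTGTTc
In exon 140, 84.0% of the 25 whole codons are of the PEVK kind, and in exon 201 86.4% of 22 are. In exon 225, which is 267 bases long, 39.8% of 88 are, and its capitals are scattered among other codons, whereas in exons 140 and 201 they run on with few breaks.

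The total level of Ttn mRNA did not differ between the groups beyond the spread among mice. Ttn was at 1705, 7572, 2261 and 9422 CPM in WT_Ctr 1 to 4, at 2252, 2044, 2049 and 8346 in WT_Tnpo3, at 2303, 2363, 4119 and 2297 in P635L_Ctr and at 3076, 2053, 2759 and 2054 in P635L_Tnpo3. The 3 highest values were those of the 3 libraries rich in ENSMUSG00000119584, and without them every library lay between 1705 and 4119. As a share of all counts, without TMM scaling, Ttn took 0.554% in WT_Ctr 2, 0.801% in WT_Ctr 4 and 0.725% in WT_Tnpo3 4. In every other library that share lay between 0.165% and 0.426%. The group means were 5240 ± 3842, 3673 ± 3117, 2770 ± 900 and 2486 ± 515 CPM (SD, n = 4), or 44.7, 31.3, 23.6 and 21.2 RPKM, that is, per kilobase of summed exon. Ttn ranked between 10 and 58 among all genes by its counts and, because it is so long, only between 496 and 2721 per kilobase.

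In edgeR's quasi-likelihood test the log2 fold change of Ttn was -0.92 (SE 0.56, Benjamini-Hochberg adjusted p = 0.311) for P635L_Ctr over WT_Ctr and -0.16 (SE 0.56, adjusted p = 0.923) for P635L_Tnpo3 over P635L_Ctr. It was -1.08 (SE 0.57, adjusted p = 0.337) for P635L_Tnpo3 over WT_Ctr and -0.51 (SE 0.56, adjusted p = 0.99986) for WT_Tnpo3 over WT_Ctr. By the same edgeR test P635L_Tnpo3 over WT_Tnpo3 gave -0.56 (SE 0.56, adjusted p = 0.625), and the genotype by virus interaction 0.36 (SE 0.79, adjusted p = 0.886). The share of all genes that passed an adjusted p under 0.05 was 14.2%, 3.88%, 3.07%, 0.00536%, 3.72% and 0.504% in these 6 comparisons. Exact permutation tests of the CPM values gave two-sided p between 0.371 and 0.886 for the 5 comparisons of 2 groups, where 4 mice against 4 allow no p below 0.0286. Without the 3 rich libraries the sign turned in each comparison with a wild-type group, to 0.51 (edgeR adjusted p = 0.190) for P635L_Ctr over WT_Ctr and 0.36 (adjusted p = 0.530) for P635L_Tnpo3 over WT_Ctr, still short of a call. The authors' deposited table lists the change as WT_Ctr over the other group, at log2 0.907 (adjusted p 0.324) for P635L_Ctr, 1.05 (0.287) for P635L_Tnpo3 and 0.499 (0.99998) for WT_Tnpo3.

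Reads were spread unevenly along the gene, and differently between libraries. At exon 35, near the Z-disc end, the rMATS table of P635L_Ctr lists 37, 646, 71 and 1187 reads across the exon's 2 junctions for the 4 WT_Ctr libraries and 96, 189, 288 and 120 for the P635L_Ctr libraries. At exon 346, the last but 1, the reads were 1287, 1289, 2504 and 2562 in WT_Ctr. They were 3951, 8108, 4622 and 5321 in P635L_Ctr and 2059, 2676, 3403 and 2473 in P635L_Tnpo3. These reads are not scaled for library totals, which were 28493249 to 40610576 counts in WT_Ctr and 37803840 to 85922669 in P635L_Ctr. The rMATS tables give the 4 libraries of a group in a fixed but unnamed order, so they are called listed positions 1 to 4 and were not matched to replicate numbers. Reads at exon 237 came to 1.86%, 43.4%, 2.24% and 36.4% of those at exon 346 in WT_Ctr, to 0.810%, 1.11%, 6.12% and 1.45% in P635L_Ctr and to 9.66%, 3.85%, 4.996% and 1.17% in P635L_Tnpo3. WT_Ctr positions 2 and 4 thus held reads along the whole gene. In the other 10 libraries of these 3 groups the reads lay mostly at the M-band end. Exon 346 is not listed for WT_Tnpo3, where exon 237 had 62, 40, 39 and 846 reads, most of them at position 4. What this uneven spread did to the exon levels was not tested. A level compares reads on neighbouring junctions of 1 library, and at WT_Ctr positions 1 and 3 many levels rest on a few reads.

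**Figure D1:**
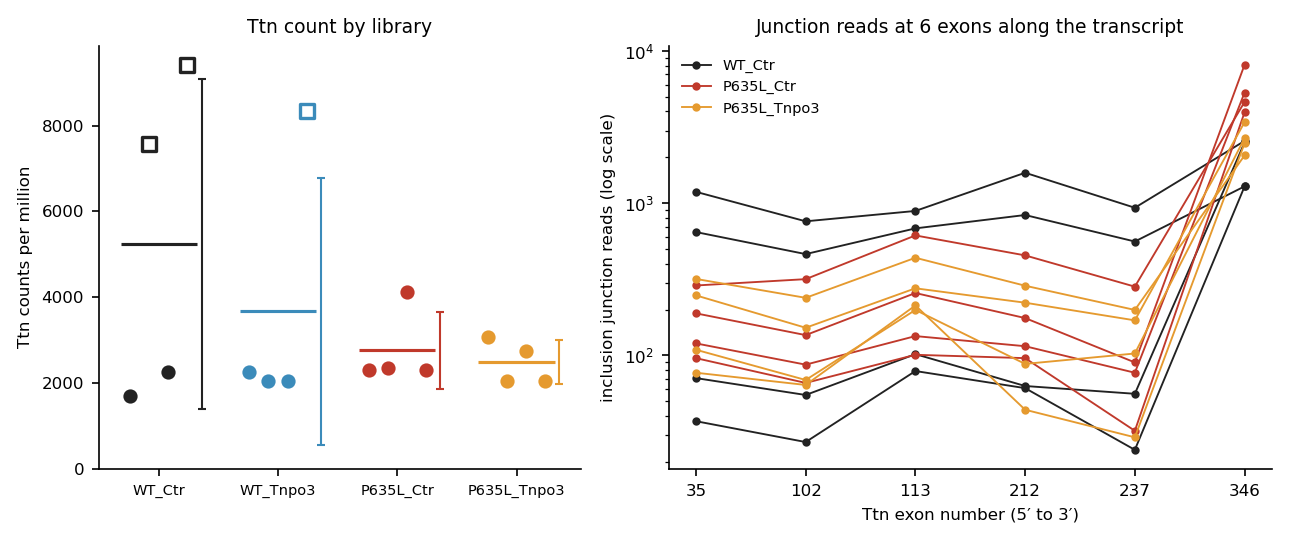
Left, Ttn CPM (linear axis from 0) in each of 16 libraries by group, with the group mean as a line and the SD as a bar; open squares are the 3 libraries in which ENSMUSG00000119584 took over 10% of counts, and they are the 3 highest for Ttn. Right, junction reads (log axis) at 6 exons along the gene for each listed position of WT_Ctr, P635L_Ctr and P635L_Tnpo3, where reads at exon 237 reach 36.4% and 43.4% of those at exon 346 in 2 WT_Ctr libraries and at most 9.66% in the other 10.

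The inclusion level of a skipped-exon event sets the reads across the exon's own junctions against those on 1 skipping junction, corrected for length by rMATS. Other junctions that skip the exon are not counted. An exon can thus have several levels, and none of them is its share of all transcripts. For a mutually exclusive pair the reads of the 2 exons are set against each other. In hearts with the P635L mutation many spring exons of titin that wild-type hearts leave out were kept. Of 65 Ttn events that averaged 10 or more junction reads a library in each group, 20 were called between P635L_Ctr and WT_Ctr (edgeR adjusted p under 0.05 and a difference of at least 0.1), and all 20 were higher in the mutant. Without the library at WT_Ctr position 4, 1 of the 2 with reads along the whole gene, 13 were called. Over all genes 0.161% of 34800 events were called, and 0.121% were called higher. With the authors' rMATS FDR in place of edgeR the count for Ttn was also 20, where 2.5% of all events passed, and a weighted limma fit called 11, where 0.126% passed. The called Ttn events were 18 of 53 skipped exons and 2 of 12 mutually exclusive pairs, against 0.199% of skipped-exon events and 0.19% of mutually exclusive events over all genes. They stood for 16 of the 34 distinct exons tested as skipped exons. The median difference over the 65 events was 0.038, with 55 above 0 and 10 below, while the median over all events was -5e-04.

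Most of the called exons lay in the PEVK stretch. Exons 113 to 203 held 13 called exons of 21 tested, exons 48 to 112 held 2 of 5, exons 204 to 347 held 1 of 4 and exons 1 to 47 held none of 4. The tested exons overlap in the junctions that skip them, so they are not independent of each other. Differences in the 65 events ran from -0.42 to 0.98. The lowest was that of exon 12 when skipped between exons 10 and 14, which was far from a call (edgeR adjusted p = 0.678).

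**Figure D2:**
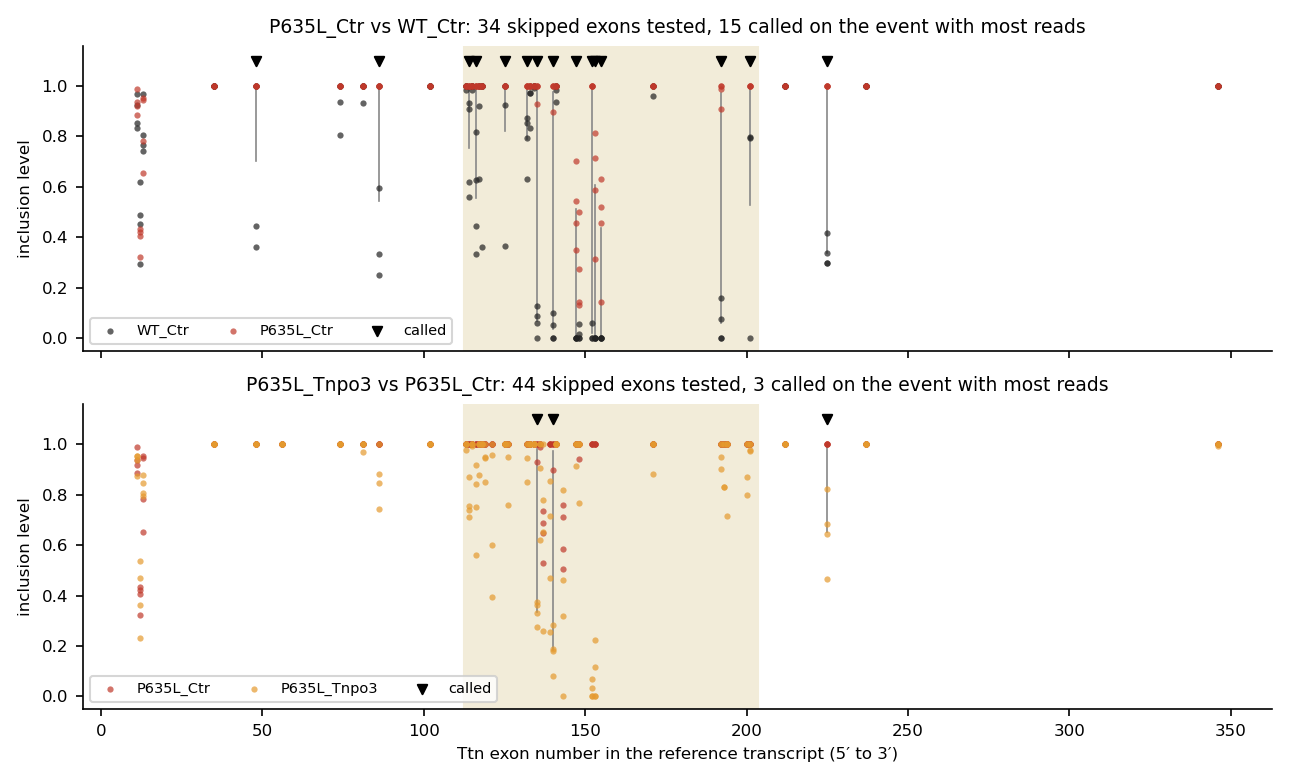
Inclusion level (0 to 1) at each listed position for every tested skipped exon, against exon number in Ttn-203, for P635L_Ctr with WT_Ctr (34 exons) and for P635L_Tnpo3 with P635L_Ctr (44 exons), using the event with most reads for each exon; the PEVK exons 113 to 203 are shaded and triangles mark called events. In P635L_Ctr most of the shaded exons sit at or near 1, apart from exons 147, 148, 153 and 155, with WT_Ctr levels spread from 0 upward, and P635L_Tnpo3 levels lie below those of P635L_Ctr for the called exons.

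The PEVK exons 135, 140 and 192 had large differences and went from nearly absent to nearly constant. Exon 140, skipped by a junction from exon 134 to exon 141, had inclusion levels of 0, 0.051, 0 and 0.1 at the 4 listed positions of WT_Ctr and of 1, 1, 0.898 and 1 in P635L_Ctr. The groups were far apart, with a difference of 0.94 (edgeR adjusted p = 3.62e-07). Exon 135, skipped by the same junction, was at 0, 0.061, 0.129 and 0.088 in WT_Ctr and at 1, 1, 0.927 and 1 in P635L_Ctr, a difference of 0.91 (edgeR adjusted p = 3.21e-08). Exon 192, skipped from exon 171 to exon 202, was at 0, 0.077, 0 and 0.159 against 1, 0.908, 0.986 and 1, a difference of 0.91 (edgeR adjusted p = 8.23e-05). In each of these exons the lowest mutant library lay above the highest wild-type one. At WT_Ctr positions 1 and 3, however, the skipping reads numbered 11 and 4 for exons 135 and 140 and 2 and 1 for exon 192.

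Exons 152 and 153 belong to the same run of PEVK exons. Exon 152, 300 bases long at chr2:76671434-76671733, was set against the junction from exon 134 to exon 171. Its levels were 0, 0 and 0.059 in the 3 WT_Ctr libraries with a value. In P635L_Ctr all 54 junction reads of this event included it, which allows a skipping share of up to 5.56% in the event. The difference was 0.98 (edgeR adjusted p = 0.000881). Here the FDR in the authors' rMATS table is 1, so the deposited test did not call this exon. The level of exon 152 does not count other junctions that leave it out. In P635L_Ctr the junction from exon 142 to exon 171 had 2, 12, 25 and 10 reads. That from exon 150 to exon 171 had 5, 9, 42 and 4. Exon 153 between exons 142 and 171 had no inclusion read in 64 junction reads of WT_Ctr. Its levels in P635L_Ctr were 0.812, 0.714, 0.588 and 0.315, a difference of 0.61 (edgeR adjusted p = 0.00230). Between the same exons 142 and 171, exon 147 was at 0 in WT_Ctr and at 0.704, 0.457, 0.543 and 0.349 in P635L_Ctr (difference 0.51, edgeR adjusted p = 0.00938), and exon 155 at 0 and at 0.630, 0.521, 0.456 and 0.145 (difference 0.44, edgeR adjusted p = 0.0279). The wild-type levels of all 3 exons rest on the same 2, 34, 1 and 27 skipping reads. Exon 155 lost its call in 7 of 14 alternatives and exon 147 in 4, limma and a minimum of 20 junction reads among them, and exon 153 lost it in those 2. Against this junction the 3 exons were thus at intermediate levels in the mutant, unlike exons 135 and 140 against theirs. Skipped from exon 134 to exon 171, exon 153 was at 1 in every P635L_Ctr library, on 136 inclusion reads. The difference from WT_Ctr was 0.98 (edgeR adjusted p = 2.71e-05), and the call was lost in 3 of 14 alternatives, the authors' rMATS FDR among them. The level of an exon thus depends on the junction it is set against.

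A further set of exons was already partly used in wild-type hearts and had levels of 1 in the mutant. Exon 115, skipped from exon 114 to exon 120, was at 0.157, 0.177, 0.149 and 0.226 in WT_Ctr, 4 close values on 22, 179, 30 and 196 skipping reads, and at 1 in every P635L_Ctr library (difference 0.82, edgeR adjusted p = 2.52e-09). No read of 320 in this event skipped it in the mutant, which allows a skipping share of up to 0.938% there. The junction from exon 113 to exon 116, which also leaves exon 115 out, had 0, 9, 12 and 5 reads in P635L_Ctr. Exon 225, beyond the PEVK stretch on the A-band side, was at 0.300, 0.418, 0.297 and 0.338 in WT_Ctr and at 1 in P635L_Ctr, where 0 of 612 reads skipped it, a limit of 0.490% (difference 0.66, edgeR adjusted p = 2.52e-09). Such limits cover counting error only, since reads copied by PCR are not independent molecules. Exon 116, skipped from exon 115 to exon 120, was at 0.817, 0.444, 0.626 and 0.334 in WT_Ctr and at 1 in P635L_Ctr (difference 0.44, edgeR adjusted p = 0.000327). At WT_Ctr positions 1 and 3 its levels rest on 8 and 3 inclusion reads with 1 skipping read each.

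Exons 201 and 86 were also called, on fewer wild-type reads. Exon 201, between exons 200 and 202, was at 0, 0.796 and 0.793 in the 3 WT_Ctr libraries with a value and at 1 in P635L_Ctr, where none of 542 reads skipped it, a limit of 0.554% (difference 0.47, edgeR adjusted p = 0.00489). The level of 0 rests on 3 reads, the difference fell to 0.21 at the lowest when 1 library was left out, the call was lost in 4 of 14 alternatives, and the FDR in the authors' rMATS table is 1. These levels do not count the junction from exon 47 to exon 202, which also skips exon 201. It had 29, 200, 4 and 320 reads in WT_Ctr. Exon 86, 288 bases long at chr2:76714254-76714541 in the immunoglobulin part of the spring, was at 1, 0.597, 0.250 and 0.333 in WT_Ctr and at 1 in P635L_Ctr, where none of 261 reads skipped it, a limit of 1.15% (difference 0.46, edgeR adjusted p = 0.000301). With 1 wild-type library at 1, on a single read, the groups met for exon 86, and its exact permutation test gave p = 0.143, whereas each of the other 11 exons with values above reached the smallest p that test allows, 0.0286. The 2 called mutually exclusive pairs list exons 113 and 114 at the start of the PEVK stretch. The table names 1 exon of each pair. Exon 114 was at 0.909, 0.541, 0.876 and 0.473 in WT_Ctr and at 1 in P635L_Ctr (difference 0.30, edgeR adjusted p = 2.61e-05), and exon 113 at 0.755, 0.852, 0.707 and 0.876 and at 1 (difference 0.20, edgeR adjusted p = 4.89e-06).

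Exons at both ends of the gene did not show this. Exon 346, the most read, was included in 7642 junction reads of WT_Ctr at a level of 1 at every position. Exon 212 lies after the PEVK stretch and had a mean level of 0.9995 in WT_Ctr and 1 in P635L_Ctr. Exons 11, 12 and 13 are 138 bases each, near the Z-disc end, and are alternatively used in every group. Exon 11, skipped from exon 10 to exon 12, was at 0.966, 0.925, 0.835 and 0.854 in WT_Ctr, 0.932, 0.984, 0.864 and 0.926 in WT_Tnpo3, 0.938, 0.919, 0.886 and 0.988 in P635L_Ctr and 0.954, 0.875, 0.938 and 0.953 in P635L_Tnpo3. These 4 ranges overlapped, and P635L_Ctr minus WT_Ctr was 0.038 (edgeR adjusted p = 0.682). Exon 12, skipped from exon 11 to exon 13, had mean levels of 0.464, 0.532, 0.395 and 0.400 in the same order of groups.

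**Figure D3:**
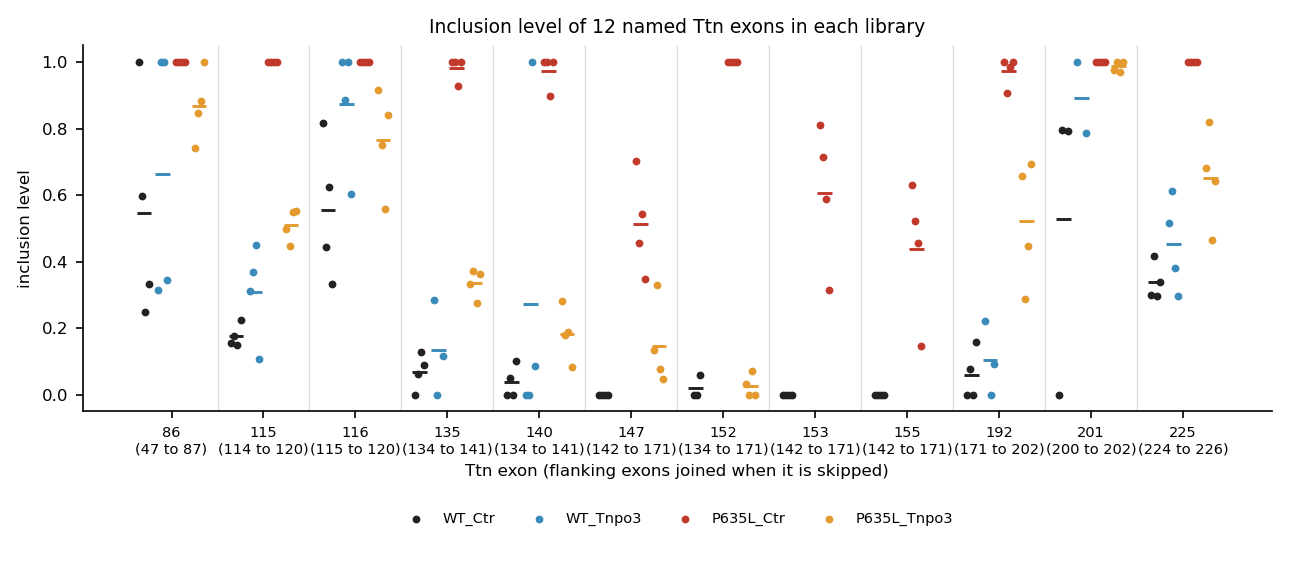
Inclusion level (0 to 1) of 12 Ttn exons at each listed position of the 4 groups, with a dash at each group mean; exons with no events listed in a WT_Tnpo3 or P635L_Tnpo3 table have no points there. P635L_Ctr points sit at or near 1 for 9 exons and between 0.145 and 0.812 for exons 147, 153 and 155, and the P635L_Tnpo3 mean lies between those of P635L_Ctr and WT_Ctr for exons 115, 135, 140, 192 and 225.

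With Tnpo3 delivered to the mutant, some of the spring exons were skipped again. None of the deposited tables compares P635L_Tnpo3 with P635L_Ctr, so events with the same coordinates in the 2 mutant tables were joined, which gave 105 Ttn events, of which 89 had enough reads. Of these 89, 6 were called, all lower in P635L_Tnpo3, against 0.0305% of 29463 events over all genes and 0.0272% called lower. Limma called 4, where 0.0339% of all events passed. The 6 were 5 of 71 skipped-exon events, for exons 115, 135 (by 2 events), 140 and 225, and 1 of 16 mutually exclusive pairs, against 0.0355% and 0.0927% of such events over all genes. The count was 0 without the library at P635L_Tnpo3 position 1 and 3 without P635L_Ctr position 3, while the differences stayed: with any 1 library left out they were between -0.82 and -0.76 for exon 140, -0.66 and -0.63 for exon 135, -0.50 and -0.47 for exon 115 and -0.40 and -0.28 for exon 225. P635L_Tnpo3 position 1 supplied 49 of the 146 reads of P635L_Tnpo3 on the junction from exon 134 to exon 141, and without it the edgeR adjusted p of exons 115, 135 and 140 was between 0.0525 and 0.0544. The median difference over the 89 events was -0.00575, with 50 below 0 and 17 above, and over all events it was 0. By stretch, 3 of 30 tested exons in 113 to 203 were called, 1 of 4 in 204 to 347, and none of 4 and of 6 in the other stretches.

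Exon 140 was at 0.283, 0.180, 0.190 and 0.083 in P635L_Tnpo3, all far below the mutant control values given above (difference -0.79, edgeR adjusted p = 0.0126). Exon 135 was at 0.332, 0.373, 0.275 and 0.364 (difference -0.65, edgeR adjusted p = 0.0121). Exon 115 was at 0.498, 0.448, 0.548 and 0.552 (difference -0.49, edgeR adjusted p = 0.0109), and exon 225 at 0.682, 0.821, 0.465 and 0.643 (difference -0.35, edgeR adjusted p = 0.0233). In each of the 4 exons, the highest P635L_Tnpo3 library was below the lowest P635L_Ctr library. The mutually exclusive pair that lists exon 114 was at 0.748, 0.733, 0.681 and 0.853, against 1 in P635L_Ctr (difference -0.25, edgeR adjusted p = 0.0172).

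Other exons that were called in the mutant were lower with Tnpo3 by 0.23 to 0.97 without passing the test. Exon 152 was at 0.032, 0, 0.071 and 0 in P635L_Tnpo3 (difference -0.97, edgeR adjusted p = 0.0548) and exon 192 at 0.659, 0.288, 0.448 and 0.694 (difference -0.45, edgeR adjusted p = 0.223). Exon 147 was at 0.133, 0.331, 0.078 and 0.047 (difference -0.37, edgeR adjusted p = 0.799). Exon 116 was at 0.916, 0.750, 0.559 and 0.841 (difference -0.23, edgeR adjusted p = 0.223). On the events named above, exons 86 and 201 stayed near their mutant values. Exon 201 was at 0.977, 1, 0.971 and 1 (difference -0.013, edgeR adjusted p = 0.866) and exon 86 at 0.742, 0.846, 0.882 and 1 (difference -0.13, edgeR adjusted p = 0.591). These levels do not count longer skips. The junction from exon 171 to exon 202 also skips exon 201. It had 17, 7, 14 and 6 reads in P635L_Tnpo3 and 0, 3, 1 and 0 in P635L_Ctr. The junction from exon 47 to exon 202 skips both exons. It had 48, 13, 31 and 9 reads in P635L_Tnpo3 and is not listed for P635L_Ctr. These counts were not tested.

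Set against WT_Ctr, the treated mutant had no called Ttn event, at 0 of 112 tested by edgeR, with 30 at an unadjusted p under 0.05 and 0.0347% of 34628 events called over all genes. The weighted limma fit called 1, where 0.026% of all events passed, and the FDR in the authors' deposited table with the same minimum difference called 12, where 2.1% passed. That the edgeR test missed its threshold does not show that levels were the same. Exon 115 was at 0.512 ± 0.049 in P635L_Tnpo3 and 0.177 ± 0.035 in WT_Ctr (SD, n = 4), a difference of 0.33 with no overlap (edgeR adjusted p = 0.195). Exon 135 differed by 0.27 (edgeR adjusted p = 0.440), exon 225 by 0.31 (edgeR adjusted p = 0.440) and exon 140 by 0.15 (edgeR adjusted p = 0.663), while exon 152, at 0.026 ± 0.034 against 0.020 ± 0.034 (SD, n = 4 and 3), differed by 0.006. The comparisons share their WT_Ctr and P635L_Tnpo3 libraries with those above and are not independent of them.

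In wild-type hearts, Tnpo3 gave no called Ttn event, at 0 of 105 by edgeR, by limma and by the authors' FDR rule, with 3 at an unadjusted edgeR p under 0.05. Over all genes 0% of 31877 events were called by edgeR and by limma, and 0.929% by the authors' FDR rule. The differences of the 105 events ran from -0.34 to 0.32. The smallest adjusted p was 0.735, shared by many events, among them exon 116 between exons 115 and 120 (difference 0.32), exon 140 (0.23, with the highest level of 1 on 5 reads), exon 118 between exons 113 and 120 (0.095), exon 42 between exons 41 and 44 (-0.013) and exon 2 (-0.006). Exon 115 was at 0.313, 0.369, 0.450 and 0.108 in WT_Tnpo3, and exon 225 at 0.517, 0.612, 0.382 and 0.297. Their differences from WT_Ctr were 0.13 (edgeR adjusted p = 0.735) and 0.11 (edgeR adjusted p = 0.742), and for both exons the lowest WT_Tnpo3 library lay below the highest of WT_Ctr.

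A single value per library summarised the exons, the mean level over the distinct skipped exons with an event tested in a comparison. Over 34 exons it was 0.654, 0.643, 0.682 and 0.618 in WT_Ctr and 0.940, 0.912, 0.905 and 0.879 in P635L_Ctr, a difference of 0.26. The groups did not overlap, and the exact permutation test gave its smallest possible p, 0.0286. Over 44 exons it was 0.963 ± 0.005 in P635L_Ctr and 0.8291 ± 0.017 in P635L_Tnpo3 (SD, n = 4), a difference of -0.134 with exact permutation p = 0.0286. For P635L_Tnpo3 against WT_Ctr (49 exons) it was 0.627 ± 0.007 and 0.572 ± 0.055 (exact permutation p = 0.143), and for WT_Tnpo3 against WT_Ctr (44 exons) 0.565 ± 0.062 and 0.524 ± 0.026 (exact permutation p = 0.257). The first of these gave an exact permutation p of 0.0286 with at least 20 junction reads (difference 0.058) or without WT_Ctr position 1 (0.087) or 4 (0.056). The second did so without WT_Tnpo3 position 4 (0.025). Exons without a level in a library drop out of its mean. Over the 43 exons with a level in every library, an alternative chosen after seeing the data, the first gave 0.080 (exact permutation p = 0.0286). The means rest on different exons in each comparison, so they are not to be read across comparisons. Taken instead as the share of inclusion reads summed over the 34 exons, which gives the well-read exons most weight, P635L_Ctr minus WT_Ctr was 0.061 (exact permutation p = 0.0571).

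The junctions that skip exons show which parts of the gene were joined, and are given as reads at positions 1 to 4 and as a percent of the reads per junction at exon 212. The longest well-read one joined exon 47 to exon 202 and left out 154 exons with 24843 bases, the whole PEVK stretch but its end among them. It had 29, 200, 4 and 320 reads in WT_Ctr (49.0% ± 34.2), 12, 18, 11 and 290 in WT_Tnpo3 (43.6% ± 14.6) and 48, 13, 31 and 9 in P635L_Tnpo3 (33.0% ± 5.79; SD, n = 4 each). It is not listed in the table of P635L_Ctr. The junction from exon 224 to exon 226, which skips exon 225, had 14, 158, 13 and 327 reads in WT_Ctr, 35, 6, 46 and 10 in P635L_Tnpo3 and 0 in all 4 libraries of P635L_Ctr. The junction from exon 114 to exon 120 likewise had 22, 179, 30 and 196 reads in WT_Ctr, 52, 26, 42 and 19 in P635L_Tnpo3 and 0 in P635L_Ctr. Every WT_Ctr and P635L_Tnpo3 library had reads on these 3 junctions.

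Others had most of their reads in the mutant control, among the groups that list them, and are not listed for WT_Tnpo3. The junction from exon 153 to exon 171, which leaves out 17 PEVK exons of 1401 bases, had 0 reads in WT_Ctr, 17, 61, 91 and 17 in P635L_Ctr (43.6% ± 17.7) and 15, 0, 3 and 3 in P635L_Tnpo3 (6.70% ± 6.405). From exon 129 to exon 132 there were 0, 0, 0 and 2 reads in WT_Ctr and 29, 79, 195 and 38 in P635L_Ctr (75.5% ± 14.5). This junction is not listed for P635L_Tnpo3 either. From exon 136 to exon 138 there were 0, 0, 0 and 2 in WT_Ctr, 21, 56, 55 and 18 in P635L_Ctr (40.7% ± 17.3) and 9, 0, 6 and 5 in P635L_Tnpo3 (8.601% ± 9.82; SD, n = 4). P635L_Ctr thus had reads that leave out PEVK exons as well, over at most 38 exons in a listed junction. The junction from exon 134 to exon 141 went another way, with 11, 55, 4 and 74 reads in WT_Ctr, 0, 0, 11 and 0 in P635L_Ctr and 49, 16, 55 and 26 in P635L_Tnpo3 (17.8% ± 12.3, 1.21% ± 2.42 and 59.6% ± 39.7). At the Z-disc end the junction from exon 11 to exon 13 was read in every library of all groups, between 18 and 408 times. These counts describe the libraries and were not tested.

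**Figure D4:**
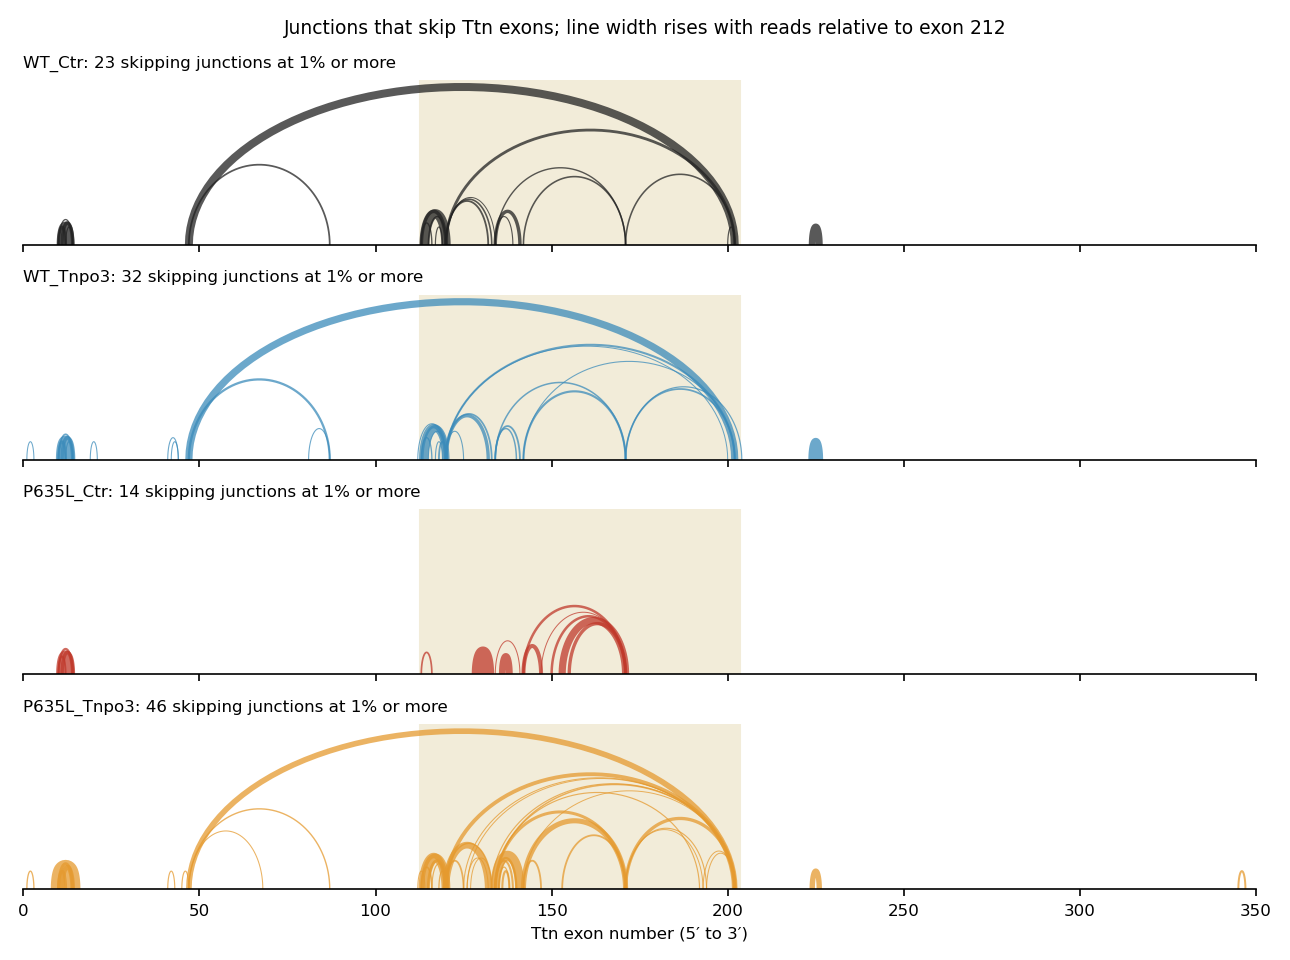
Skipping junctions of Ttn as arcs from the exon before to the exon after the skipped exons (exon number in Ttn-203 on the x axis), 1 panel for each of the 4 groups, with line width by the reads as a percent of the reads per junction at exon 212 and only junctions at 1% or more. The longest arcs over the shaded PEVK exons 113 to 203 appear in WT_Ctr, WT_Tnpo3 and P635L_Tnpo3. In P635L_Ctr the arcs there are shorter, such as that from exon 142 to exon 171 over 28 exons. Several of the longest junctions, the 47 to 202 junction among them, are not listed for P635L_Ctr.

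The remaining event types were few. An alternative 3' splice site gives an exon of 354 bases (chr2:76679161-76679514) or of 255, with 99 bases between the sites. Reads on the longer form were 0, 12, 2 and 19 in WT_Ctr, 0, 0, 10 and 0 in P635L_Ctr and 11, 1, 13 and 0 in P635L_Tnpo3. Reads on the shorter form were 0 in all of WT_Ctr, 34, 56, 137 and 38 in P635L_Ctr and 15, 4, 16 and 3 in P635L_Tnpo3. The reads of WT_Ctr were too few for a test against P635L_Ctr, and P635L_Tnpo3 minus P635L_Ctr was 0.16 (edgeR adjusted p = 0.572). The other alternative 3' splice site, of 93 or 72 bases, was at 1 in both mutant groups. The retained intron, chr2:76538792-76544556, is listed for WT_Tnpo3 with WT_Ctr, and was not called (edgeR adjusted p = 0.735).

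Other heart genes known as RBM20 targets had fewer called events. Between P635L_Ctr and WT_Ctr, events were called for Ryr2, the calcium release channel (1 of 19), Camk2d, a calcium-dependent kinase (1 of 9), Ldb3, a Z-disc protein (2 of 17), Trdn, triadin (1 of 57), and Pdlim5 (1 of 28). No event was called for Cacna1c (22 tested), Lmo7 (11), Tpm1 (20), Myom1 (24), Ank3 (6), Nexn (24), Enah (7) or Lrrfip1 (39). Between P635L_Tnpo3 and P635L_Ctr, 1 of 17 Ldb3 events was called and none of the other genes. Ttn alone thus held 20 of the 56 events called over all genes in the first comparison and 6 of 9 in the second.

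The genes of titin's partners were taken as 3 lists by place in the sarcomere: 12 of the Z-disc, 10 of the I-band and 13 of the A-band and M-band. In P635L_Ctr against WT_Ctr 12 of these 35 genes passed edgeR's test, against 14.2% of all genes, and 6 or 7 did with any 1 of the 4 P635L_Ctr libraries left out. In that comparison 4 of 10 I-band genes passed, with a list median of 0.25 on the log2 scale against -0.049 over all genes. Ankrd1 and Ankrd23, ankyrin repeat proteins that bind the titin spring and respond to stretch, rose by log2 2.35 (SE 0.33, adjusted p = 0.000145) and 1.39 (SE 0.18, adjusted p = 2.93e-05). P4ha1, a collagen prolyl hydroxylase, rose by 0.77, and Capn3, a protease that binds titin, fell by 1.46. Capn3 was near the floor, at a mean of 1.09 CPM in WT_Ctr, 0.392 in P635L_Ctr and 0.182 in P635L_Tnpo3. Of the A-band and M-band genes 6 of 13 passed (median 0.10). Myom3, a myomesin of the M-band, rose by 2.21 (SE 0.20, adjusted p = 8.31e-07), and Sqstm1 (0.59) and Myom1 (0.35) rose, while Myh7, the slow myosin heavy chain, fell by 2.62 (SE 0.28, adjusted p = 6.55e-06), and Myh6 fell by 0.64. At the Z-disc 2 of 12 passed (median 0.15), a share near that of all genes, among them Tcap, telethonin, which caps the titin end and fell by 0.64 (edgeR adjusted p = 0.0323). The calls of Capn3 and Tcap were lost in 10 alternatives each, that of Myom1 in 13 and that of Myh6 in 6. Ankrd1, Ankrd23, P4ha1, Myom3, Sqstm1 and Myh7 kept theirs in all 24.

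Ankrd1 was at 968, 604, 1060 and 453 CPM in WT_Ctr, 4053, 4016, 3359 and 4277 in P635L_Ctr and 1655, 1844, 1495 and 2755 in P635L_Tnpo3. Ankrd23 was at 14.6 to 26.9 CPM in WT_Ctr, 44.7 to 54.6 in P635L_Ctr and 16.2 to 26.4 in P635L_Tnpo3. The treated mutant thus lay within the wild-type range for Ankrd23 and above it for Ankrd1. Myom3 was at 4.20 to 4.62 CPM in WT_Ctr, 17.8 to 24.7 in P635L_Ctr and 7.88 to 14.2 in P635L_Tnpo3. Myh7 was at 619 to 1095 CPM in WT_Ctr, 89.5 to 167 in P635L_Ctr and 333 to 409 in P635L_Tnpo3, between the other groups. Tcap was at 2558 to 3860 CPM in WT_Ctr, 1691 to 2408 in P635L_Ctr and 2120 to 3342 in P635L_Tnpo3.

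In P635L_Tnpo3 against P635L_Ctr, 5 of the 35 partner genes passed the test, against 3.88% of all genes. The count was 3 without P635L_Ctr 4 or without P635L_Tnpo3 3, and 20 when only these 2 groups were fitted. Ankrd23 fell by 1.29 (edgeR adjusted p = 0.000413) and Myom3 by 0.99 (edgeR adjusted p = 0.00641), Trim63, a ubiquitin ligase that binds titin at the M-band, by 0.54 (edgeR adjusted p = 0.0121) and Flnc, filamin C, by 0.57 (edgeR adjusted p = 0.0497, and up to 0.155 with 1 library left out), while Myh7 rose by 1.39 (edgeR adjusted p = 0.00768). The list medians were -0.26 at the Z-disc, -0.51 in the I-band and -0.28 in the A-band and M-band, against 0.0067 over all genes. In P635L_Tnpo3 against WT_Ctr, where 3.07% of all genes passed, Ankrd1 (1.33, edgeR adjusted p = 0.0320) and Myom3 (1.22, edgeR adjusted p = 0.00164) were higher and Capn3 (-2.56, edgeR adjusted p = 0.00588) and Myh7 (-1.24, edgeR adjusted p = 0.0153) lower. In P635L_Tnpo3 against WT_Tnpo3, where 3.72% passed, Ankrd1 (1.69), Ankrd2 (1.96) and Myom3 (1.17) were higher and Fhod3 (-0.64) lower. In WT_Tnpo3 against WT_Ctr, none of the 35 genes passed.

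Across the 16 libraries, the genes whose log2 CPM followed Ttn most closely, among 4490 genes with a mean of at least 5, were Ash1l (Pearson r = 0.975), Tns1 (0.970), Prrc2c (0.967), Tnrc6b (0.963) and Plec (0.959). After the group means were taken out, they were Ash1l (0.994), Tnrc6b (0.985), Plec (0.983), Utrn (0.981) and Myo18a (0.977). All have long transcripts, with summed exon lengths between 14838 and 23677 bases, and all these values share the same libraries, among them the 3 rich in ENSMUSG00000119584. They are descriptions of these libraries.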

How the data were processed

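Poly(A) RNA libraries of the left ventricle were read from 16 mice, 4 in each group, per the labels. The authors deposited whole-number counts per gene for each library, made with STAR 2.7.9a and featureCounts 2.0.6 on GRCm39 per the submitters' processing notes. They also deposited log2 fold changes and p-values of WT_Ctr against each other group, with DESeq2 named in the same notes, and rMATS tables with junction read counts and p-values and other values per event, whose version is not given in the sources used here. Whether counting used strand is not given either; Gm13938 overlaps Ttn on the other strand and had 0 counts in every library.

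Gene counts of all 16 libraries were fitted in 1 edgeR 4.0.16 quasi-likelihood model (R 4.3.3, TMM scaling, default expression filter) over 18662 genes. Each event's inclusion and skipping reads were fitted as paired columns with library terms, and p-values were adjusted over all events tested. On simulated reads with the depth of P635L_Ctr and WT_Ctr (34800 events), that fit recovered 7.53% of differences of 0.2, 69.2% of 0.4 and none that were not put in. The simulated spread between libraries was set to the same value for every event and was not estimated from the data. The rates hold for that setting only. Named exons were, for each event type, up to 12 called in P635L_Ctr against WT_Ctr with the largest differences, 1 event per exon, then the 3 largest for P635L_Tnpo3 against P635L_Ctr, the 3 with the smallest adjusted p for WT_Tnpo3 and the 3 most read that were not called. The members and lists were chosen with earlier results of these data known. The labels do not say that the numbers 1 to 4 pair mice, and not every pair of same-numbered libraries deviated together, so no pairing was used. Symbols came from the rMATS tables for 11276 genes and were looked up in a supplied list of gene names for the others. Scaling, filters, DESeq2 1.42.0, limma 3.58.1, a replicate block, read minimums, differences and each left-out library were tried as alternatives. The values of some genes in the lists are not reported here.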

Additional observations from a re-analysis of the deposited data

Results flagged for a closer look

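Of 116 groups of 4 values tested for 1 library far from the other 3, 12 held such a value (10.3%). The rule flags about 1 in 20 groups by chance when values are normally distributed. Many of these groups are levels bounded at 0 and 1, where 3 tied values flag the remaining 1 by construction. The share of 10.3% therefore cannot be set against chance. Ttn counts had a high library in WT_Tnpo3, at 8346 CPM, which is 1 of the 3 libraries rich in ENSMUSG00000119584, and in P635L_Ctr, at 4119 CPM. P4ha1 had a high library in P635L_Ctr at 90.3 CPM. Exon 140 was at 1 in a single WT_Tnpo3 library whose other 3 levels were at most 0.087. In P635L_Ctr, a single library fell below 1 or well below the rest for exon 140 (0.898), exon 192 (0.908) and exon 135 (0.927). WT_Tnpo3 had a high library for the mutually exclusive pair that lists exon 113 (0.926) and for exon 118 between exons 113 and 120 (0.389). The well-read exons that hardly vary gave a low library at 0.999 in P635L_Ctr and 0.994 in P635L_Tnpo3 (exon 346) and at 0.998 in WT_Ctr (exon 212).

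The change of Myh7 with Tnpo3 differed between the genotypes in the fit of all 16 libraries. The interaction of virus and genotype was 2.16 on the log2 scale (SE 0.37, edgeR adjusted p = 0.0115): Myh7 was higher with Tnpo3 in the mutant, and in wild type its change was -0.77 (edgeR adjusted p = 0.99986). Without the 3 libraries with more Xist than Y-linked counts the interaction was 2.14 and no longer called (edgeR adjusted p = 0.0813).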

How the results depend on the processing

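The Ttn gene count was called under no alternative run, and its direction turned in all but 1 comparison without the rich libraries. Without the 3 libraries rich in ENSMUSG00000119584 its log2 fold change became 0.51, 0.36 and 0.13 for P635L_Ctr, P635L_Tnpo3 and WT_Tnpo3 over WT_Ctr, 0.23 for P635L_Tnpo3 over WT_Tnpo3 and -0.28 for the interaction. P635L_Tnpo3 over WT_Tnpo3 was 0.22 without the libraries with more Xist than Y-linked counts. With each library left out in turn, P635L_Ctr over WT_Ctr ran from -1.21 to -0.47, P635L_Tnpo3 over P635L_Ctr from -0.28 to 0.10 (the latter without P635L_Ctr 3), P635L_Tnpo3 over WT_Ctr from -1.37 to -0.63, WT_Tnpo3 over WT_Ctr from -1.31 to -0.07, P635L_Tnpo3 over WT_Tnpo3 from -0.77 to 0.23 (without WT_Tnpo3 4) and the interaction from -0.092 (without WT_Ctr 4) to 1.15.

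Called Ttn events in P635L_Ctr against WT_Ctr were 20, 12 with at least 20 junction reads, 11 with limma and 13 to 24 with a library left out, 13 without WT_Ctr position 4. Exons 115, 116, 135, 140, 192 and 225 kept the call in all 14 alternatives. Against P635L_Ctr, P635L_Tnpo3 had 6, and 0 to 7 with a library left out, 0 without P635L_Tnpo3 position 1 and 3 without P635L_Ctr position 3. Against WT_Ctr it had 0, 1 with limma, 12 with the authors' rMATS FDR and 0 to 1 with a library left out. WT_Tnpo3 had 0 in every alternative run. The mean exon level of P635L_Ctr minus WT_Ctr was 0.061 from summed reads (exact permutation p = 0.0571) and 0.243 to 0.299 with a library left out. For P635L_Tnpo3 minus P635L_Ctr it was -0.150 to -0.094. P635L_Tnpo3 minus WT_Ctr was 0.058 with at least 20 junction reads and 0.040 to 0.087 with a library left out. Over exons with a level in every library, an alternative chosen after seeing the data, it was 0.080 (exact permutation p = 0.0286). WT_Tnpo3 minus WT_Ctr was 0.012 to 0.054.

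Partner genes called ranged, with a library left out, from 6 to 12 for P635L_Ctr (main 12), 3 to 7 for P635L_Tnpo3 over P635L_Ctr (main 5), 2 to 6 for P635L_Tnpo3 over WT_Ctr (main 4), 2 to 6 over WT_Tnpo3 (main 4) and 1 to 3 for the interaction (main 1). P635L_Tnpo3 over P635L_Ctr gave 20 when only these groups were fitted, 11 without the rich libraries, 11 without the Xist libraries and 9 with DESeq2. P635L_Tnpo3 over WT_Ctr gave 2 with no filter, 2 without the rich libraries and 7 with DESeq2. Over WT_Tnpo3 it gave 8 without the rich and 2 without the Xist libraries, and the interaction 3 with no filter, 3 without the rich libraries, 0 without the Xist libraries and 3 with DESeq2. Same-numbered libraries did not deviate together throughout, with mean correlations from -0.145 to 0.104, although 7 of 16 libraries were closest to their own number. A replicate block changed the partner count for P635L_Tnpo3 over WT_Tnpo3 to 2 and moved no other count by over 1.5 times. The causes of these shifts were not tested. WT_Ctr positions 1 and 3 held few reads along the gene (24 and 56 at exon 237), which limits their exon levels.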
